A study of Mus musculus with 6 samples.

Results

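The transcripts described here come from the nuclear genes of oxidative phosphorylation. They were chosen by name from the deposited table of transcripts: a transcript counted when it was assigned to a single gene whose symbol begins with Nduf, Uqcr, Atp5 or Cox followed by 4 to 8, or is Sdha, Sdhb, Sdhc, Sdhd, Cyc1 or Cycs. Each entry of the table is 1 transcript, that is, the reads of 1 gene in 1 cell that share a UMI (a random tag of 6 bases added to each cDNA molecule before amplification). The rule took 655 of 36303 single-gene transcripts (1.80%, exact 95% interval 1.67 to 1.95), and 75 of the 6357 gene names in the table. In the annotation, 95 coding genes carry such names, so 20 were not detected.

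The study read amplified full-length cDNA of 6 single cells of the mouse brain (CD-1, stage given as Embryo) on the PacBio instrument, 2 each of VLMC, Oligo1 and Oligo5. VLMCs are vascular and leptomeningeal cells, for which the deposited labels read Oligodendrocyte progenitor cell, while Oligo1 and Oligo5 are an immature and a mature myelinating stage of the oligodendrocyte, the cell that wraps axons in myelin. The cells were captured on a C1 microfluidic chip and each has its own barcode, none received a treatment, and no animal is named for any of them. A cell type therefore counts as 1 sample, no test compares cell types, and every interval below covers counting error only. The study asked how diverse the isoforms of single cells are, and the comparisons here set cells and cell types side by side for the genes of 1 pathway.

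Oxidative phosphorylation takes place in the inner membrane of mitochondria. Complex I (NADH dehydrogenase) and complex II (succinate dehydrogenase) pass electrons to ubiquinone, complex III hands them on through cytochrome c, and complex IV (cytochrome c oxidase) passes them to oxygen. The proton gradient built on the way drives complex V, the ATP synthase. Most subunits are encoded in the nucleus and a few in the mitochondrial genome, and several subunits of complex IV have paired genes, a widespread form and a form best known from muscle, heart, lung or testis.

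Single-gene transcripts numbered from 2309 in VLMC-1 to 11371 in Oligo1-1, so a gene with no transcript may still hold, by the limit of 3 counts, 0.0264% to 0.130% of a cell. Of 10 VLMC markers, all were found, with 358 transcripts in the VLMCs and 0 in the oligodendrocytes, and of 10 oligodendrocyte markers all were found, with 3580 transcripts in the oligodendrocytes and 0 in the VLMCs. Of 10 markers of oligodendrocyte progenitors 2 were found, Pdgfra with 8 transcripts, all in the VLMCs, and Gpr17 with 4, all in Oligo1-1. The lack of the other progenitor markers in the VLMCs, and not the presence of Pdgfra, is against their deposited label. In Oligo5-2, 5 of 10 neuron markers had 33 transcripts (0.535% of the cell), led by Snap25 with 19, and the other cells had 0. Of 8 astrocyte markers 5 were found, with a summed share between 0.0166% of Oligo1-2 and 0.811% of Oligo5-2. A single transcript of 1 of 8 microglia markers was found, and 4 of 6 endothelium markers were found, with at most 0.303% of a cell. No doublet caller was run on 6 cells, and the part of these markers in the values of Oligo5-2 was not tested. Oligo1-2 and Oligo5-1 also stood apart in read length, with 75.7% and 70.9% of their transcripts seen only by the short run, against 46.7% to 52.2% in the other cells.

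The genes of oxidative phosphorylation made up between 1.07% and 2.12% of the transcripts of a cell, and the lowest and one of the highest values came from the same cell type. In VLMC-1 they were 1.30% (30 transcripts, exact 95% interval 0.878 to 1.85). VLMC-2 had 2.12% (98 transcripts, 1.72 to 2.58). In Oligo1-1 the share was 2.11% (240 transcripts, 1.85 to 2.39). Oligo1-2 stood at 1.07% (64 transcripts, 0.821 to 1.36), and its interval lies below that of Oligo1-1. Oligo5-1 and Oligo5-2 had 1.85% (108 transcripts, 1.52 to 2.23) and 1.87% (115 transcripts, 1.54 to 2.23). The mean of the VLMCs was 0.991 times that of the 4 oligodendrocytes, and the mean of Oligo5 was 1.17 times that of Oligo1. The cells of different types overlapped in both comparisons. Both ratios turned with a single cell. The first was 1.23 without VLMC-1 and 0.754 without VLMC-2, and 0.341 in transcripts of the long run alone. The second was 0.881 without Oligo1-2 and 1.75 without Oligo1-1, while without Oligo5-2, the cell with neuron markers, it was 1.17.

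By complex, the share followed no common order of the cells. Complex I held the most transcripts in all, 266 from 32 genes, and ranged from 0.433% in Oligo1-2 to 0.924% in Oligo5-2. Both VLMCs (0.909% and 0.865%) and both Oligo5 cells (0.841% and 0.924%) lay above both Oligo1 cells (0.642% and 0.433%), although the interval of Oligo1-1 (0.504 to 0.807) overlaps those of all 4. Complex V came next with 177 transcripts from 13 genes and was lowest in VLMC-1 (0.173%, 4 transcripts) and highest in Oligo1-1 (0.677%, 77 transcripts). Its mean share in the VLMCs was 0.595 times that in the oligodendrocytes, with overlapping cells. Complex IV had 104 transcripts from 12 genes, with 0.0866% and 0.476% in the VLMCs, 0.405% and 0.150% in the Oligo1 cells and 0.223% and 0.195% in the Oligo5 cells. Within each of VLMC and Oligo1 the cells differed by more than the types did. Complex III (50 transcripts, 8 genes) lay between 0.0433% and 0.206%, and complex II (42 transcripts, all 4 genes) between 0.0333% and 0.195%. The 6 Ndufaf genes found, assembly factors that help build complex I, had 16 transcripts.

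**Figure D1:**
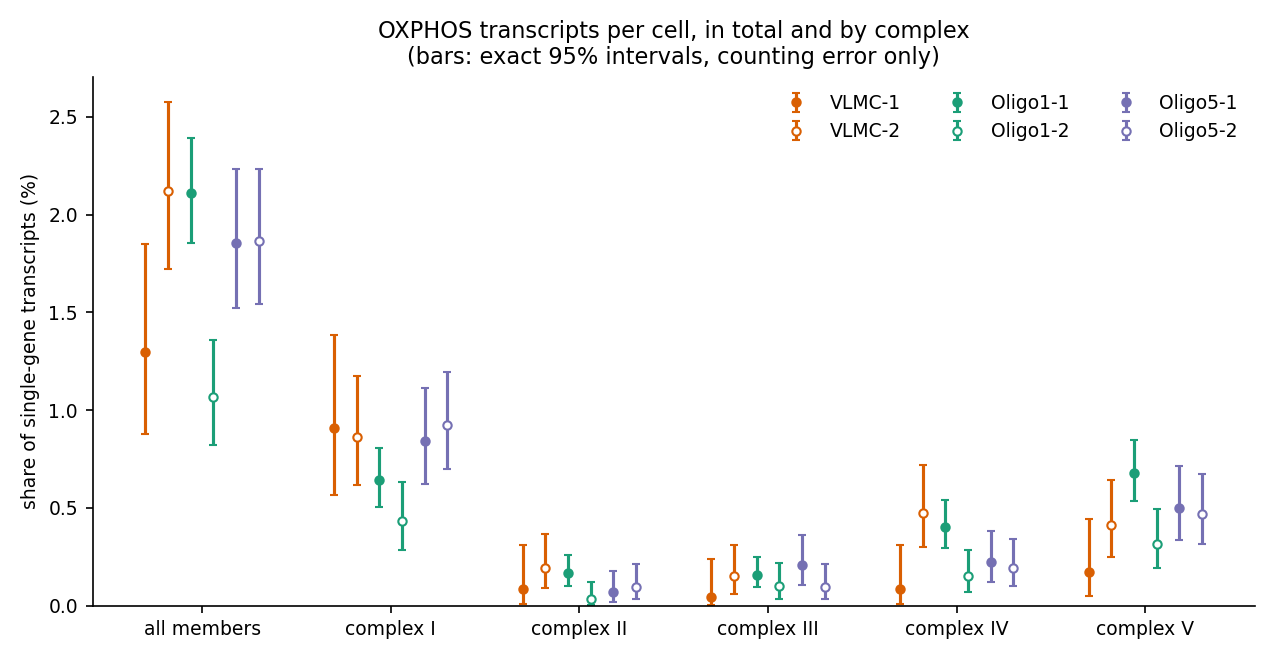
Share of single-gene transcripts in percent (vertical axis) for all members and for each complex (horizontal axis), 1 point per cell, with exact 95% intervals as bars. Oligo1-2 is lowest for all members at 1.07% and VLMC-2 highest at 2.12%, and the 2 cells of VLMC and of Oligo1 lie far apart for complexes IV and V.

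Other lists of mitochondrial and energy genes gave fewer transcripts in sum. They also hold fewer genes than the 95 members, so the sums do not compare levels per gene. Of 17 genes of the tricarboxylic acid cycle, 14 were found with 66 transcripts, led by Suclg1 (14), a subunit of succinyl-CoA ligase, and citrate synthase Cs (11). Of 17 glycolysis genes, 10 were found with 59 transcripts, led by the aldolase gene Aldoa (18) and the phosphofructokinase gene Pfkp (8). Porins and carriers of the inner membrane gave 86 transcripts from 8 of 11 genes, with the adenine nucleotide carrier Slc25a4 at 35 and the porin Vdac2 at 15. Another 86 transcripts came from 32 of 43 assembly and regulation genes outside the naming rule, among them the ATP synthase inhibitor Atpif1 (12) and the assembly gene Cox16 (9). None of the 13 protein genes of the mitochondrial genome had a transcript in the table. Whether the authors' gene assignment could name these genes was not tested, so their absence from the table is no measure of level. The 23 cytosolic ribosomal protein genes that were detected gave 128 transcripts (0.353% of all). Those not detected were not counted. The part of unique alignment and of the removal of short molecules in this count was not tested, so it is no measure of level.

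Counts per gene were small but higher than usual in the table, with a median of 7 transcripts per detected member against 2 over all detected genes. Of the 75 members, 31 had at least 10 transcripts and together 496 of the 655, while 12 had 1. Members in all 6 cells numbered 7, in 5 cells 17 and in 1 cell 16. The genes with at least 20 transcripts were 6, and 4 of them belong to complex V.

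Atp5b (10:128083273-128090391, + strand), the catalytic beta subunit of the ATP synthase, and Cox4i1 (8:120668222-120674207, + strand), the widespread form of complex IV subunit 4, had 39 transcripts each. Atp5b had 0 and 5 in the VLMCs, 21 and 4 in the Oligo1 cells and 5 and 4 in the Oligo5 cells, each pair in the order of the cell numbers. Cox4i1 had 0, 5, 17, 4, 8 and 5 in this order of cells. For both genes Oligo1-1 held the most transcripts, and it was also the deepest cell: per 10000 transcripts of the cell Atp5b stood at 18.5 there and between 6.49 and 10.8 in the other cells that had it. Ndufa3 (7:3617373-3620327, + strand), a small accessory subunit of complex I, was the most frequent member found in every cell, with 1, 6, 7, 3, 8 and 4 of 29 transcripts.

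Atp5a1, the alpha subunit beside Atp5b, had 25 transcripts, 0, 4, 8, 8, 3 and 2 in the order of cells above. Atp5e (2:174461072-174464105, − strand), the small epsilon subunit, had 24, of which 16 were in Oligo1-1, 5 in Oligo5-1, 2 in Oligo5-2, 1 in Oligo1-2 and 0 in either VLMC. Atp5g3 (2:73908447-73911325, − strand), one of the 3 genes of the proton-carrying c subunit, had 20, with 0, 3, 7, 3, 2 and 5. In VLMC-1, 5 of these 6 genes had no transcript, but 1 transcript there is worth 4.33 per 10000 and a count of 0 allows 13.0.

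**Figure D2:**
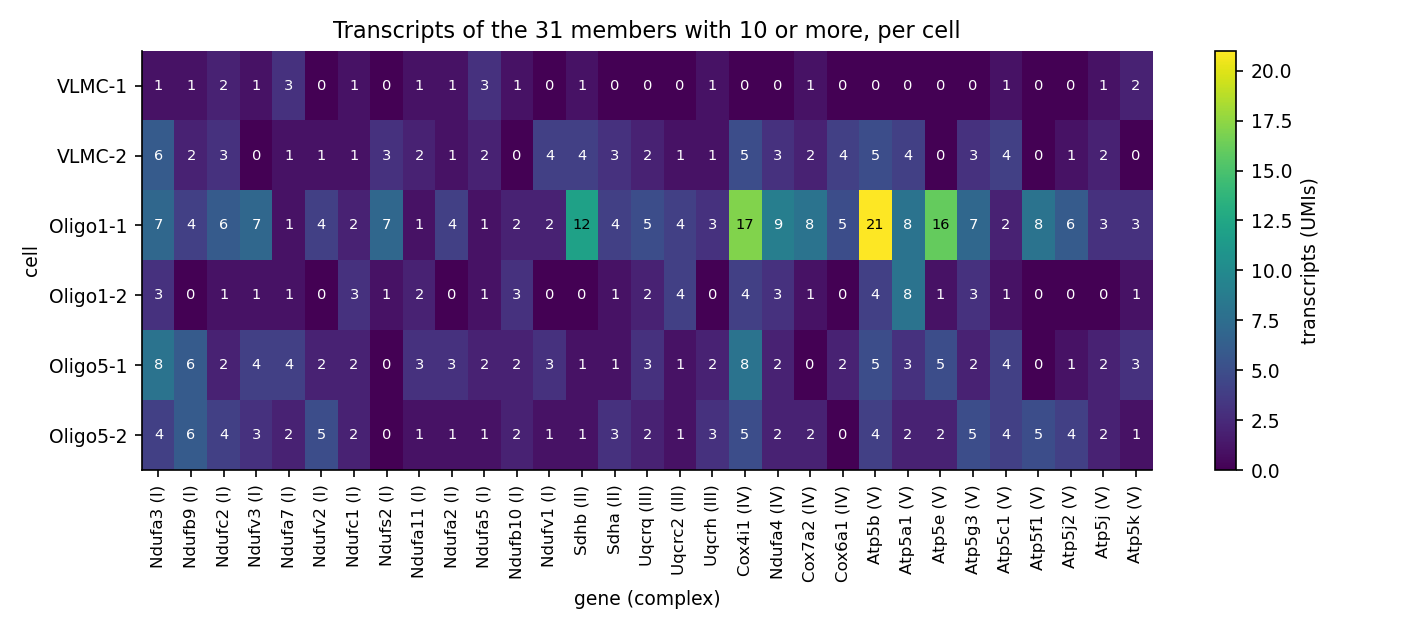
Number of transcripts (colour and digits) of the 31 members with 10 or more transcripts (horizontal axis, with their complex) in each of the 6 cells (vertical axis). Most entries are below 6, and the highest, 21 for Atp5b, 17 for Cox4i1 and 16 for Atp5e, are all in Oligo1-1.

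Between cell types, members were compared by the ratio of mean shares, with 0.5 transcripts added per group, among genes with at least 10 transcripts in the cells compared. Whether the cells of the groups overlap is given for members only. It was not counted over all genes, so a lack of overlap describes the values and is no result about the members. Between VLMCs and oligodendrocytes, 5 of 31 members were 2-fold or more higher in the VLMCs, where 20.5% of all 669 genes tested were, and 3 of 31 had a ratio 2-fold or more lower, where 49.3% of all genes did. Of these 3, Atp5e and Atp5f1 were at 0 in both VLMCs, so their ratios depend on the 0.5 added. Both also reached the 10 transcripts needed through the oligodendrocytes alone. The median log2 ratio was 0.23 over the members and -0.97 over all genes. The 5 higher in the VLMCs were Ndufa5, Ndufa7, Cox6a1, Ndufv1 and Atp5j. Ndufa5, an accessory subunit of complex I, had 3 and 2 transcripts in the VLMCs and 1, 1, 2 and 1 in the oligodendrocytes. That is 13.0 and 4.32 per 10000 against 0.879 to 3.43, and the groups do not overlap (log2 ratio 2.18). Atp5j, a subunit of the stator stalk of complex V, had 1 and 2 transcripts in the VLMCs and 3, 0, 2 and 2 in the oligodendrocytes. That is 4.33 and 4.32 per 10000 against 0 to 3.43, also without overlap (log2 ratio 1.01). In VLMC-1 a single transcript is already worth 4.33 per 10000, so 1 molecule decides the lack of overlap there.

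The others overlapped. Ndufa7, another accessory subunit of complex I, had 13.0 and 2.16 per 10000 in the VLMCs against 0.879 to 6.87 in the oligodendrocytes. Cox6a1 was at 0 in VLMC-1 and at 8.65 per 10000 in VLMC-2, and at 0 in Oligo1-2 and Oligo5-2. Ndufv1, the subunit of complex I that binds NADH, had 0 and 8.65 per 10000 in the VLMCs against 0 to 5.15. Of the 3 lower in the VLMCs, Atp5e was the only one without overlap: against the limit of 3 counts over both VLMCs, 4.33 per 10000, its 6.89 per 10000 in the oligodendrocytes makes it at least 1.59-fold lower. As Atp5e entered the comparison only by its transcripts in the oligodendrocytes, this bound describes the counts and is no support for a difference. Atp5f1, the b subunit of the stator stalk, was at 0 in both VLMCs, Oligo1-2 and Oligo5-1, with 8 transcripts in Oligo1-1 and 5 in Oligo5-2. Its level in the oligodendrocytes is under that limit, so no fold is given. Ndufv2, an iron-sulfur subunit of complex I, had 0 and 1 transcripts in the VLMCs and 4, 0, 2 and 5 in the oligodendrocytes.

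Between the oligodendrocyte stages, 3 of 18 members were 2-fold or more higher in Oligo5, where 18.5% of all 492 genes tested were, and 4 of 18 were 2-fold or more lower, where 34.3% were. The median log2 ratio was 0.12 over the members and -0.30 over all genes. Ndufb9, an accessory subunit of complex I, had 4 and 0 transcripts in Oligo1 and 6 and 6 in Oligo5, a log2 ratio of 2.35 without overlap. Atp5c1, the gamma subunit that turns inside complex V, had 2 and 1 transcripts in Oligo1 and 4 and 4 in Oligo5, a log2 ratio of 1.83 without overlap. The third, Ndufv2, overlapped.

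In the other direction, Atp5a1 had 7.04 and 13.3 per 10000 in Oligo1 and 5.15 and 3.24 in Oligo5 (8 and 8 transcripts against 3 and 2). Uqcrc2, a core protein of complex III, had 3.52 and 6.66 against 1.72 and 1.62 (4 and 4 transcripts against 1 and 1). Neither pair of groups overlaps. The same held for Ndufa4 (log2 ratio -0.84) and Ndufa3 (log2 ratio 0.85), which stayed below 2-fold. Sdhb, the iron-sulfur subunit of complex II, had 12 transcripts in Oligo1-1, 0 in Oligo1-2 and 1 in each Oligo5 cell, and Cox7a2, a small subunit of complex IV, had 8, 1, 0 and 2. The counts of members past 2-fold, and the number with the 10 transcripts needed, both moved when a cell was left out. The number higher in the VLMCs was 1 of 10 without Oligo1-1 (26.3% of all genes), 1 of 25 without Oligo1-2 (21.9%), 1 of 20 without Oligo5-1 (23.0%) and 2 of 18 without Oligo5-2 (21.7%). The number lower in the VLMCs was 6 of 22 without VLMC-2 (47.6% of all genes), 6 of 25 without Oligo1-2 (48.9%), 5 of 20 without Oligo5-1 (49.5%) and 0 of 10 without Oligo1-1 (47.6%). Of the oligodendrocyte stages, the number higher in Oligo5 was 1 of 6 without Oligo1-1 (27.6%), and the number lower was 1 of 6 without Oligo1-1 (31%) and 1 of 11 without Oligo5-2 (35.5%).

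In the paired genes of complex IV nearly all transcripts came from the widespread form. Cox4i1 had 39 transcripts and Cox4i2, the form known from lung, 0, so that Cox4i1 made up 100% of the pair (exact 95% interval 91.0 to 100). Cox6a1 had 11 transcripts, 5 in Oligo1-1, 4 in VLMC-2 and 2 in Oligo5-1. Cox6a2, the heart and muscle form, had 1, in Oligo5-2, where Cox6a1 had 0; it was seen in 1 read of the short run, with 3 aligned blocks over 438 bp. The share of Cox6a1 in the pair was 91.7% (61.5 to 99.8).

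Cox7a2 had 14 transcripts, 1, 2, 8, 1, 0 and 2 in the order of cells, while the muscle form Cox7a1 had 0, and Cox7a2l, a related gene linked to the joining of complexes III and IV, had 1, in VLMC-2. Cox8a had 4, of which 3 were in VLMC-2 and 1 in Oligo1-1, and Cox8b, the heart and muscle form, had 1, in VLMC-2 and from 4 reads. At 5 transcripts in all, the share of Cox8a (80%) has an interval of 28.4 to 99.5. Cox6b1 had 8 and the testis form Cox6b2 0, and Ndufa4, first assigned to complex I and now counted in complex IV, had 19 (0, 3, 9, 3, 2 and 2) and its relative Ndufa4l2 0. In complex V, the 3 genes of the c subunit encode the same mature protein after the mitochondrial targeting sequence is removed. Atp5g3 gave 20 of their 21 transcripts, Atp5g2 gave 1, in Oligo1-1, and Atp5g1 gave 0.

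The 20 members that were not detected include Cycs (cytochrome c), Cox5b, Cox7c, Uqcrb, Atp5h and Atp5l. A search of the coding sequence of each member against all annotated transcripts, for at least 90% identity over at least 80% of its length, found a copy elsewhere in the genome for 33 of the 95 genes. It found one for 11 of the 20 that were not detected (55.0%) and for 22 of the 75 that were (29.3%). Atp5l had 14 copies, Cycs 10, Atp5h and Cox7c 5 each, and Atp5g1 and Uqcrb 4 each. Members with no copy had a median of 6 transcripts and those with a copy a median of 2. The annotated transcripts of the 2 groups also differed in length, with medians of 932.5 bp and 625 bp, so copies and length were not told apart. No transcript of the table carried the name of any of the copies. The copies bear GENCODE names while the authors assigned RefSeq genes, so a copy without a RefSeq name could not appear there. Only uniquely aligned molecules were kept by the authors, and the part of this in the counts of 0 was not tested, so a count of 0 for these genes is given as a count and not as a level.

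Member transcripts were short. Their median aligned length was 528 bp, against 872 bp over all genes, and they were 2.47% of transcripts found only by the short run (exact 95% interval 2.26 to 2.69), 0.659% of those found only by the long run (0.514 to 0.832) and 1.44% of those read in both. Library preparation removed molecules below 500 bp, and the annotated transcripts of 8 detected and 3 undetected members are shorter than that. The removal acted on cDNA that also carried added sequence such as the barcode, so it sets no such limit on annotated or aligned length. Member transcripts of the short run had a median of 488 bp aligned, and Atp5e, annotated at 421 bp, had 24 transcripts. The part of the removal in the counts was not tested. Among the transcripts of the short run the share was 2.19% and 3.02% in the VLMCs, 3.19% and 1.19% in the Oligo1 cells and 2.08% and 3.27% in the Oligo5 cells. Oligo1-2, the cell with the highest percentage of its transcripts seen only by the short run (75.7%), was thus also lowest within that run.

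Most member transcripts reached a first exon, here the first exon of any annotated transcript of the gene that is linked to RefSeq. Of 655, 502 did (76.6%, exact 95% interval 73.2 to 79.8), against 37.0% over all genes. It was 90% and 82.7% in the VLMCs, 84.6% in Oligo1-1, 64.8% and 86.1% in the Oligo5 cells, and 34.4% in Oligo1-2. Oligo1-2 and Oligo5-1, the cells mostly read in the short run, were also the lowest over all genes, at 12.4% and 19.9% against 37.4% to 49.1%. Annotated length went with the share: members whose annotated transcript is under 600 bp reached 93.4%, and the share fell over the next classes to 82.4% (600 to 1000 bp), 65.4% (1000 to 2000 bp) and 50% (2000 bp or more). All genes in these classes reached 91.6%, 77.4%, 55.5% and 29.3%. The members are shorter than other genes, with 58.8% of their transcripts from genes under 1000 bp against 5.67% over all genes.

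**Figure D3:**
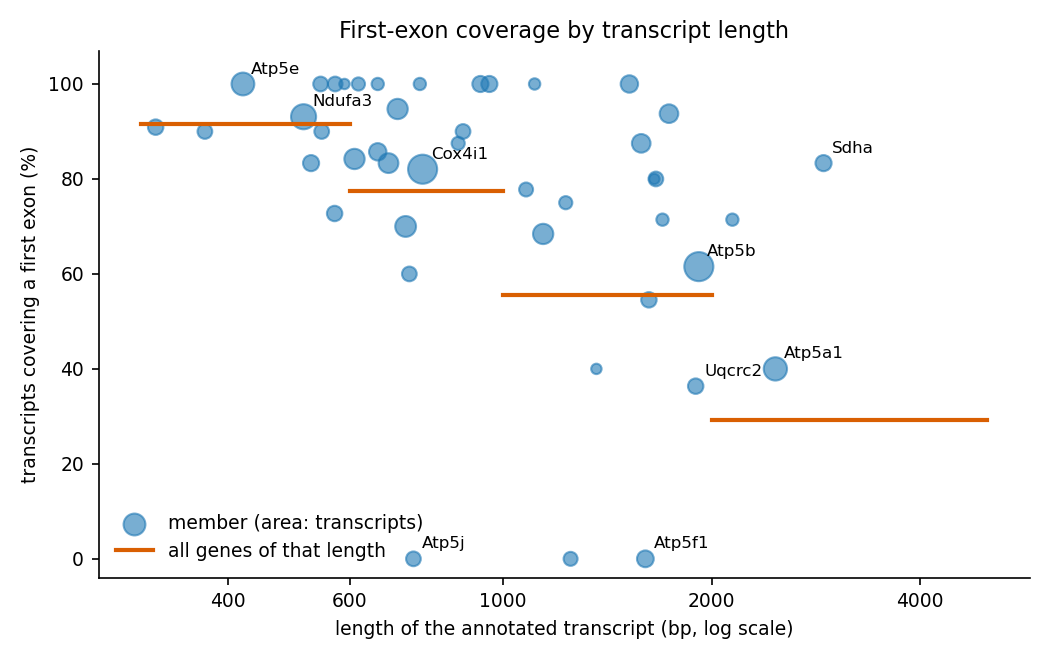
Share of transcripts that cover a first exon in percent (vertical axis) against the length of the annotated transcript in bp (horizontal axis, log scale), 1 circle per member with 5 or more transcripts, its area the number of transcripts; lines give all genes of the length class. Atp5e is at 100%, Atp5a1 at 40%, and Atp5f1 and Atp5j are at 0%.

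Among the 31 members with at least 10 transcripts, 13 reached the first exon in at least 90% and 4 in under 50%. Atp5e and Ndufv2 did so in 24 of 24 and 12 of 12, and Ndufa3 in 27 of 29. At the other end, Atp5f1 did in 0 of 13, Atp5j in 0 of 10, Uqcrc2 in 4 of 11 and Atp5a1 in 10 of 25. For Atp5f1 and Atp5j this depends on the annotation: all 13 and all 10 covered the first exon of a GENCODE transcript that is not linked to RefSeq, and with any GENCODE transcript taken, a choice made after the data were seen, members reached a first exon in 85.8% and all genes in 43.5%, and none of the 31 stayed under 50%.

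The first transcribed bases of 6 members are shown, at the most used start of each, to place the ends of the molecules on the genome. The 30 bases below run around the most used start (mm10, transcribed strand), taken from the RefSeq promoter table for GRCm38.p6, and the capitals are the first 5 bases of the cDNA.
Ndufa3, chr7:3617368-3617397, + strand: gctccgctccttgtcGCCGCcaagaacaag
Atp5b, chr10:128083291-128083320, + strand: accgcttcggcgctcAGTCTccacccggat
Atp5e, chr2:174464075-174464104, − strand: taccccaccccttccGCTACtcaggcctga
Atp5g3, chr2:73911280-73911309, − strand: tgcgcgcccagccccACTGCttcgacctct
Atp5c1, chr2:10080418-10080447, − strand: gcacgcgcactgagtCCCGTctgcccgacc
Ndufa4, chr6:11907446-11907475, − strand: caggtaggaggtcctGGGTGactttggacg
In Ndufa3, 26 of 27 first-exon transcripts started within 10 bp of the most used start, 10 bp inside the annotated one. Atp5b had 21 of 24 within 10 bp, at 33 bp inside, and Atp5e was more spread, with 15 of 24 within 10 bp and 10 different starts over 64 bp. Over all first-exon transcripts, the median start was 36 bp inside the annotated one for members and 40 bp for all genes. Starts within 20 bp of an annotated start made up 24.9% of member transcripts and 11.8% of those of all genes, and 65.2% and 24.9% with the start of any GENCODE transcript. The gap was smaller among short genes. With annotated transcripts of 1000 bp or less it was 30.6% of member transcripts (26.1 to 35.5) and 22.8% of those of other genes (20.8 to 24.9). In Oligo1-1 alone the order turned, with 21.5% and 26.9%. The values with any GENCODE transcript were not compared by length. At the starts that lie in the promoter table, the first base was G in 49.8%, A in 27.3%, C in 18.9% and T in 4.04% of 297 member transcripts, against 41.6%, 40.6%, 11.7% and 6.13% of 5594 over all genes.

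Promoters of these genes are known for sites of the nuclear respiratory factors NRF1 and GABPA and of YY1. The table holds the promoter (250 bases before to 50 after the start) of 63 of the 75 members. On either strand, GCATGCGC, the core of the NRF1 site, was present in 11 of 63 (17.5%), against 6.32% of the promoters of all genes detected in these cells and 2.80% of all 27025 promoters. The GABPA letters CCGGAAG were in 13 (20.6%), against 19.0% and 9.12%, and the YY1 letters AAGATGGC in 9 (14.3%), against 5.53% and 2.88%. Matches of different motifs were counted separately also where they overlap. In Ndufa11, an accessory subunit of complex I with 10 transcripts, and in the assembly factor Ndufaf4, with 2, the run GCGCATGCGC holds the NRF1 letters on both strands. The same run is in the promoters of Atp5k, with 10 transcripts, and Atp5g2, with 1, which are not printed. It is in capitals in the 150 bases printed here for Ndufa11 and Ndufaf4, which end before the annotated start.
Ndufa11, chr17:56717612-56717761, + strand: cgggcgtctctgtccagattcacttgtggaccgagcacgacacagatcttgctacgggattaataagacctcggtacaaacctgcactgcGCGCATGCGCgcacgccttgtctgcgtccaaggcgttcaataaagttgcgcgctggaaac
Ndufaf4, chr4:24897933-24898082, + strand: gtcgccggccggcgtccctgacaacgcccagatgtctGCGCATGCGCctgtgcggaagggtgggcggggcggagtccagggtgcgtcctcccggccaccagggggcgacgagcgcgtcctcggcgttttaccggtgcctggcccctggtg
A match says only that these letters are in the window.

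At the 3′ end, 65.0% of member transcripts ended within 20 bp of the end of a RefSeq-linked transcript (exact 95% interval 61.2 to 68.7), against 48.9% over all genes. The order turned among short genes: with annotated transcripts of 1000 bp or less it was 71.4% of member transcripts (66.6 to 75.9) and 82.5% of those of other genes (80.6 to 84.3). With the end of any GENCODE transcript it was 91.0% against 58.9%. Ends were tightly placed in most genes. Of the 31 members with at least 10 transcripts, 27 had 1 end site of 2 or more transcripts when ends within 12 bp were joined, and 4 had more (Atp5a1, Ndufa7, Sdha and Uqcrc2). For 21 of the 31, at least 90% of the transcripts ended at a RefSeq-linked end, and for 8 under 10% did. Of the 7 described here, all but Uqcrc2, which had 2 sites, had 1 shifted site of 2 or more transcripts. The median distance was -120 bp in Atp5b (range -123 to -116 over 39 transcripts), -173 bp in Ndufa3, -81 bp in Ndufa4, -47 bp in Cox7a2, -129 bp in Ndufa2 and -320 bp in Uqcrc2. In Ndufc1 the ends lay 108 bp beyond. With any GENCODE transcript taken, only Ndufa2 and Uqcrc2 of these 8 stayed away from every annotated end.

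**Figure D4:**
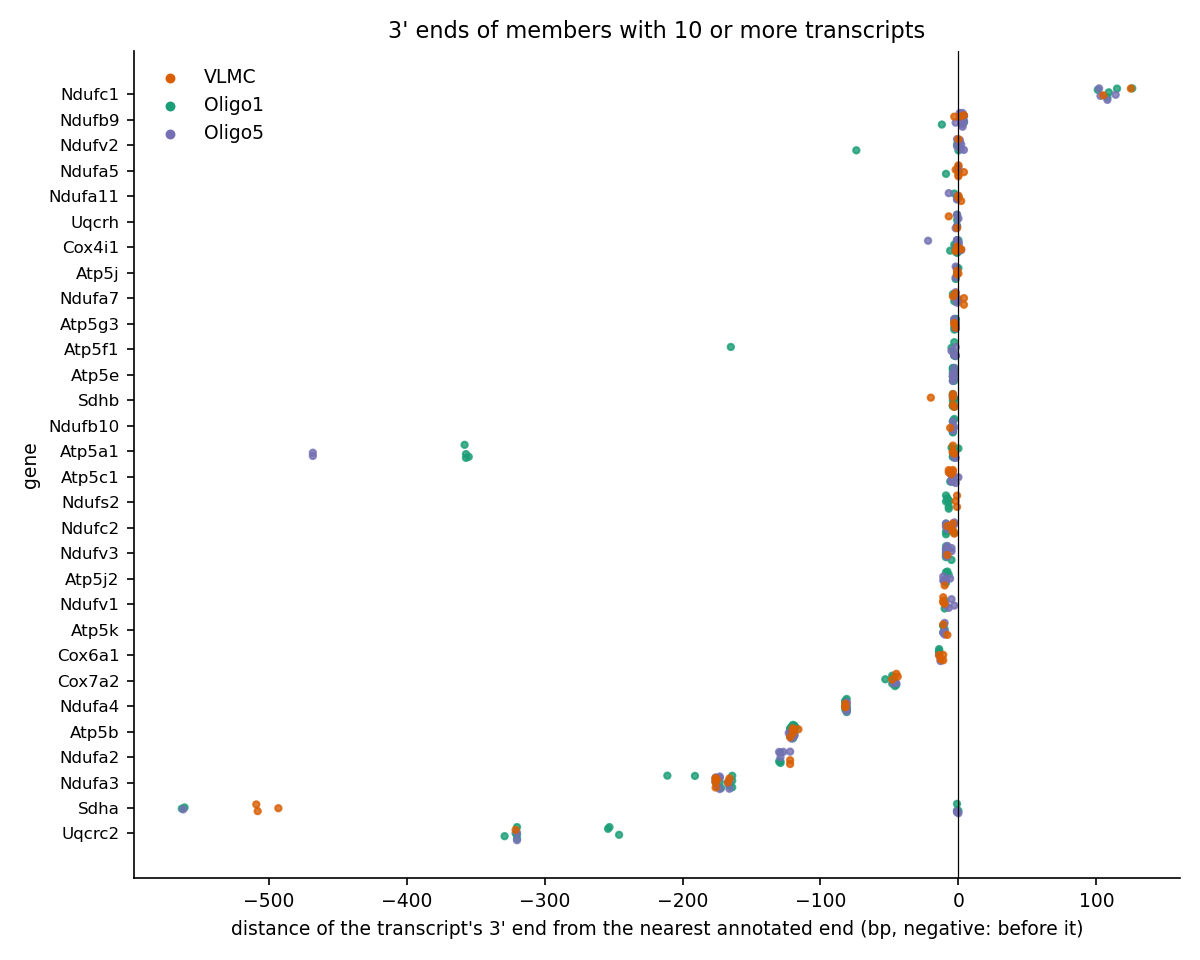
Distance in bp of the 3′ end of each transcript from the nearest RefSeq-linked annotated end (horizontal axis, negative before it) for members with 10 or more transcripts, all but 1 of them shown (vertical axis), 1 point per transcript, coloured by cell type. Points of most genes lie close together, also in genes that end away from 0, such as Atp5b at -120 bp, while Atp5a1, Sdha and Uqcrc2 have more than 1 end site.

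Polyadenylation is usually signalled by AATAAA or ATTAAA shortly before the cut. Of the 610 member transcripts whose end lies in an annotated transcript, 449 (73.6%) had AATAAA in their last 30 bases, 101 (16.6%) had ATTAAA and 60 (9.84%) neither. The last 30 bases are printed for the most used end of the members with the most first-exon transcripts and for both ends of Uqcrc2, to show the signal at annotated and at shifted ends alike. They come from the GENCODE M21 transcripts (mm10), with the hexamer in capitals. Ndufb9 is left out: all 19 of its transcripts ended at 1 site. The most used position there lies 4 bp beyond the annotated end, so its bases were not available.
Cox4i1, chr8:120674177-120674206, + strand: gtccatgctAATAAAagaccagtttacgtg
Ndufa3, chr7:3620122-3620151, + strand: cctgttgctctccAATAAAaatgtgaaaac
Atp5b, chr10:128090242-128090271, + strand: tttaaagttttcAATAAAgtatatacccct
Atp5e, chr2:174461075-174461104, − strand: tatgccAATAAAttaacatggttcactttc
Ndufa4, chr6:11900373-11900402, − strand: ttacactgatgAATAAAtctctgaaacttg
Ndufc2, chr7:97407764-97407793, + strand: atgttaacactgttATTAAAatagttatta
Atp5c1, chr2:10056034-10056063, − strand: attatcttacAATAAAcaacttacaatgag
Atp5g3, chr2:73908449-73908478, − strand: cacagtcatttcATTAAAgatgaaaacttt
Ndufv3, chr17:31531293-31531322, + strand: ccttgcctgtgagAATAAAaggcagagtca
Uqcrc2 site 1, chr7:120659175-120659204, + strand: aatgttaattcaacattttctcaatgaagt
Uqcrc2 site 2, chr7:120659241-120659270, + strand: gctgtcctagtgtcAATAAAgcattgtgtg
The shifted ends of Ndufa3, Atp5b and Ndufa4 have AATAAA like most ends printed at annotated positions, while the shifted end of Ndufa2, used by all 10 of its transcripts, has neither hexamer. Uqcrc2 had 8 transcripts at the first site, with neither hexamer and with A at 17 of the next 20 bases of the annotated transcript, and 3 at the second, with AATAAA and A at 4 of the next 20. Sdha, the flavoprotein of complex II, had 6 transcripts at its annotated end and 3 at -561 bp from it, both with AATAAA, and its other 3, all those of VLMC-2, ended at -508 bp (2) and -493 bp (1) with neither hexamer.

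Exon structures were mostly uniform. An exon structure is the chain of introns of a transcript that covers a first exon. Of 502 such member transcripts, 462 (92.0%) had the most frequent structure of their gene and 478 (95.2%) only annotated junctions. Over all transcripts, 98.8% of the members' junctions were annotated, against 97.4% over all genes, and 3.82% of member transcripts had an unannotated junction, against 6.52%. Where a structure counts from 2 transcripts, 8 of 44 members that could show a second one did (18.2%), as did 143 of 787 genes (18.2%). The 11 members with the most first-exon transcripts (the last 3 tied at 14) were Cox4i1 (32), Ndufa3 (27), Atp5b (24), Atp5e (24), Ndufb9 (18), Ndufa4 (16), Ndufc2 (15), Atp5c1 (15), Atp5g3 (14), Ndufv3 (14) and Uqcrq (14). In Atp5e, Ndufb9, Ndufa4, Ndufc2 and Ndufv3 all of them had 1 structure.

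In the transcripts found, the alternative exons of Ndufv3 and Atp5c1 were each used in 1 way almost throughout. Ndufv3, a subunit of complex I with a long exon that is known to be alternative, left out that exon 3 (1092 bp, all coding, chr17:31527310-31528401) in all 16 transcripts, in 5 cells. The annotated transcript with exon 3 is 1582 bp long, while these 16 had a median of 405.5 bp aligned. The part of molecule length in this count was not tested. Atp5c1 has an exon 9 of 37 bp (chr2:10056770-10056806) that holds the stop codon when it is included. It was included in 15 of 16 transcripts, in all 6 cells, and left out in 1 of the 4 of Oligo5-2. The join of Atp5c1 exon 8 to the next exon is printed for both forms to show what inclusion does to the end of the protein, with the next exon in capitals (mm10, − strand).
with exon 9: ctctggggctgctgctctGGATTAA
without exon 9: ctctggggctgctgctctGTAA
Read in frame, inclusion places the codon GAT before the stop codon TAA. The join of Ndufv3 exon 2 to exon 4, with exon 4 in capitals, was the one found in all 14 first-exon transcripts.
exon 2 to exon 4: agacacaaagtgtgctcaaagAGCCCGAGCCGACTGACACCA

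The 8 members with 2 or more structures fell into those seen in several cells and those seen in 1 cell. Atp5g3 used a first exon 10 bases longer in 4 of 14 transcripts, 2 in VLMC-2 and 2 in Oligo1-1, and both boundaries are annotated. Uqcrq, a small subunit of complex III, lacked 85 bases of its first exon, by an annotated intron, in 2 of 14, 1 in each Oligo1 cell. Ndufa7 had 3 structures: 5 transcripts with all 4 exons in VLMC-2, Oligo5-1 and Oligo5-2, 3 that ended in an annotated longer form of exon 2, 1 each in VLMC-1, Oligo1-1 and Oligo1-2, and 2 without exon 2, both in VLMC-1.

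Second structures from a single cell were those of Cox4i1, Ndufb5, Sdha, Sdhb and Ndufs7. In Oligo1-1, Cox4i1 had 2 of 32 transcripts that ran from exon 1 into exon 3 with 198 bases of the annotated transcript left out, 20 of which the usual structure also lacks, from the same start and with UMIs 1 base apart. Ndufb5, an accessory subunit of complex I, had 2 of 7 that joined exon 1 to exon 6 with 325 bases left out. Sdhb had 2 of 13 with 25 bases left out at the end of exon 6. Sdha had 2 of 10 that left out 1125 bases between the inside of exon 3 and the inside of exon 10, a multiple of 3. All of these were in Oligo1-1, the deepest cell. Ndufs7, a core subunit of complex I, had 3 of 7 without exon 3 (84 bp, chr10:80253074-80253157), all in Oligo5-2, and the closest of their UMIs were 1 base apart. Whether UMIs 1 base apart were separate molecules was not tested.

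The bases at both sides of the joins of Sdha and Ndufs7 are printed because the same letters occur at either side. These are the longest such runs among the second structures from a single cell. The joins of Cox4i1 (CAG) and Ndufb5 (CG) share shorter runs, and that of 2 transcripts of Sdhb shares 0 letters. How often such runs occur at other junctions was not tested. Each line gives the annotated exon sequence around the last base kept before the join and around the first base kept after it (mm10), with the letters that occur in both in capitals.
Sdha exon 3: ctgtggttgtagGCGCtggaggggcagg
Sdha exon 10: gggaggctgcctGCGCctcagtgcatgg
Ndufs7 exon 2 into exon 3: tcctgggtctgcGCACAgcacaggtccag
Ndufs7 exon 3 into exon 4: cgagcctgagcaGCACAcagtctgctgtg
The join of Sdha can lie at any of 5 places and that of Ndufs7 at any of 6 with the same result. In Ndufs7 both sites are annotated exon boundaries, and in Sdha neither site is annotated.

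**Figure D5:**
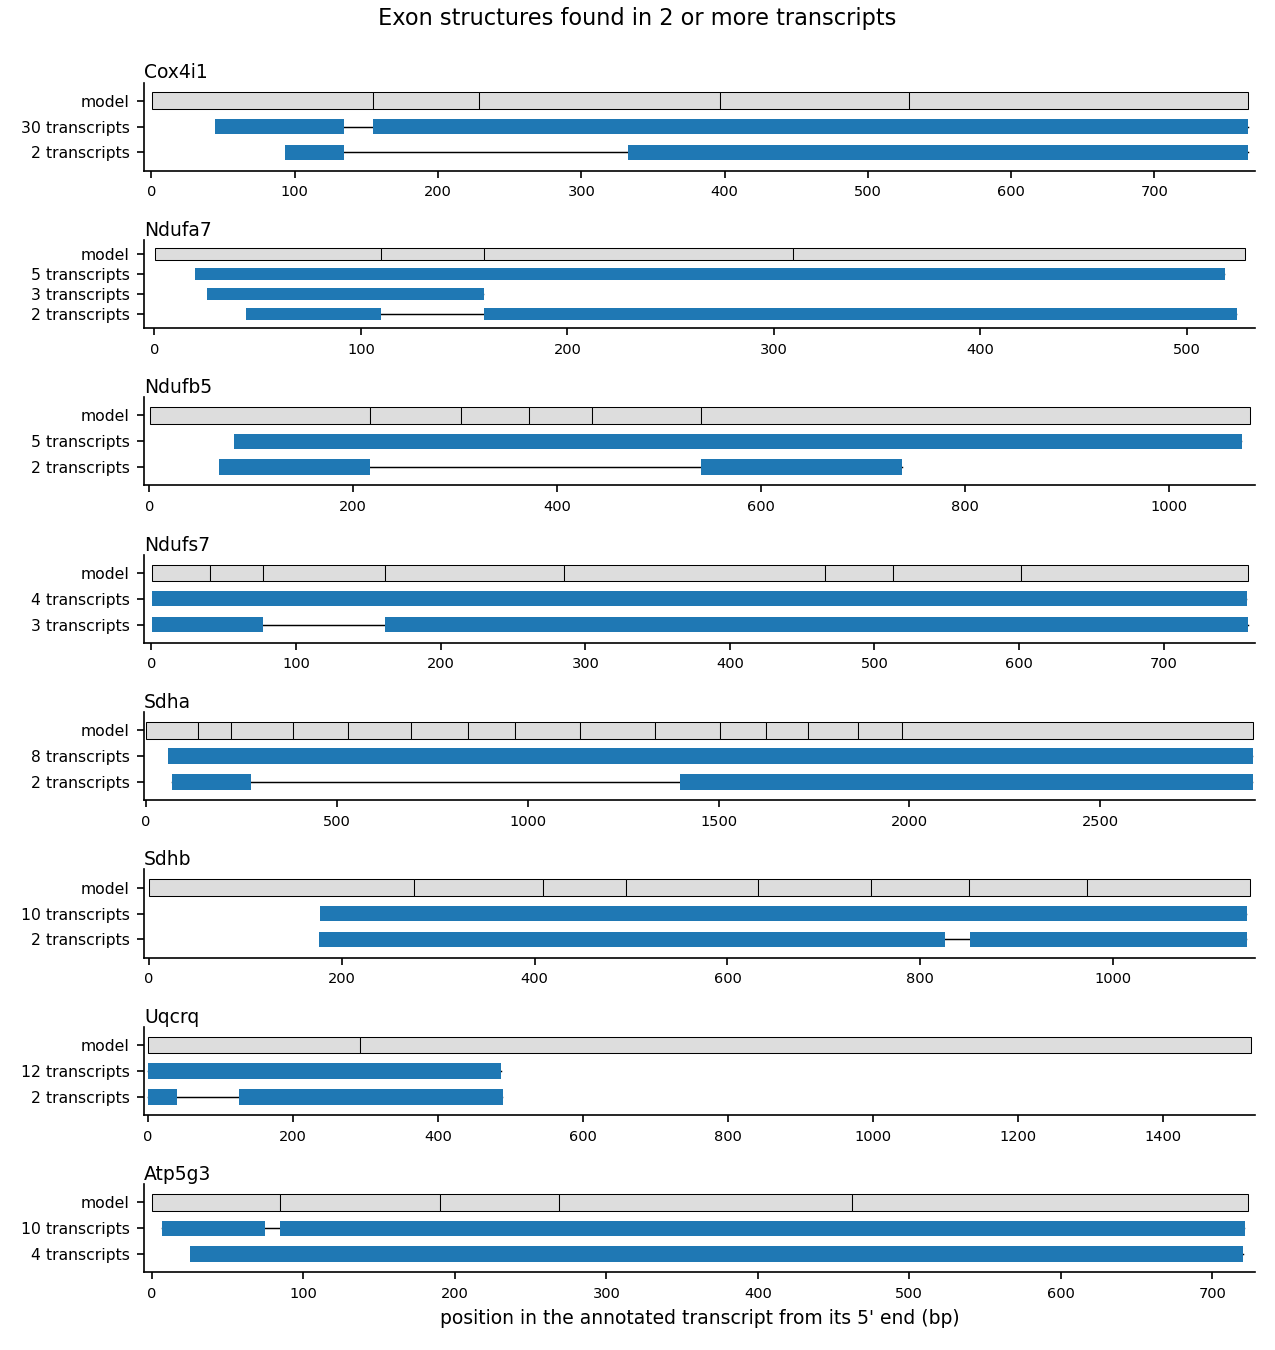
Exon structures of the 8 members with 2 or more (2 or more transcripts each), drawn along the annotated transcript in bp from its 5′ end (horizontal axis): grey boxes are annotated exons, blue boxes the aligned parts of the longest transcript of the structure, and lines the parts left out; bases outside the exons drawn are not shown. Ndufa7 has 3 structures and the others 2, and the 1125 bases left out of Sdha are the longest gap.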

How the data were processed

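Before deposit the authors separated concatenated molecules, required the barcode on either side together with poly-A, mapped to mm10 by GMAP (the submitters' processing notes name GSNAP), kept unique alignments, assigned RefSeq genes and merged reads by UMI. The deposited values are counts, reads per transcript, without normalization, with the positions of aligned blocks, whose starts count from 0, so that 1 was added.

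Shares have exact (Clopper-Pearson) 95% intervals. Ends and junctions were compared with RefSeq-linked transcripts and junctions of GENCODE M21, where the plan had named any annotated transcript; values for any transcript are given beside them. Junctions within 5 bp of an annotated site were set to it, and gaps from 20 bp read as introns. Named are members with 20 or more transcripts, the paired genes, members past 2-fold or with a second structure, structures and ends for the 10 members with the most first-exon transcripts, and the 2 leading genes of other lists. Uqcrc2, Ndufa11, Ndufaf4, Atp5k and the undetected genes were named after their values were seen. The 3′ end of 1 member is not reported here. Members and lists were chosen with earlier results of these data known. Python 3.11.15, pandas 2.3.3, numpy 2.4.6, scipy 1.17.1 and matplotlib 3.10.9 were used, and the steps were tested on simulated data.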

Additional observations from a re-analysis of the deposited data

Results flagged for a closer look

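Outside the single-gene transcripts described above, 6 transcripts were assigned to a member together with an overlapping gene and so entered no comparison. They were 3 of Ndufs1 with Ino80dos, and 1 each of Ndufa10 with Mir6900, Ndufb11 with Rbm10 and Uqcrc2 with Pdzd9. The one of Ndufb11, in Oligo1-1, is the only sign of that gene in the table. No cell type has enough cells for a check of outlying cells.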

How the results depend on the processing

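Of 124 values under alternative settings, 67 stayed within the interval, or within 1.5 times the count, of the value reported, and 57 moved; the cause was not tested. No paired analysis was possible because each cell type counts as 1 sample and the cell numbers pair nothing across types.

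The share of members in a cell moved with the run and with the 5′ end. From the short run alone it was 2.19% and 3.02% in the VLMCs, 3.19% and 1.19% in the Oligo1 cells and 2.08% and 3.27% in the Oligo5 cells, and from the long run alone 0% and 0.491% in the VLMCs, 0.792% and 0.657% in the Oligo1 cells and 0.804% and 0.627% in the Oligo5 cells. Among transcripts that cover a first exon it was 3.14%, 3.70%, 3.78%, 2.97%, 6.07% and 3.32% in that order. With UMIs 1 base apart merged, Oligo1-1 had 2.48%, and with UMIs of 2 or more reads Oligo1-2 had 0.798% and Oligo5-2 1.14%. The ratio of VLMCs to oligodendrocytes was 1.36 with UMIs of 2 or more reads, 0.341 in the long run alone, and between 0.754 (without VLMC-2) and 1.23 (without VLMC-1) with a cell left out. The ratio of Oligo5 to Oligo1 was between 0.881 (without Oligo1-2) and 1.75 (without Oligo1-1).

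With at least 5 transcripts per gene, members past 2-fold were 10 higher and 6 lower of 44 in the VLMCs (25.6% and 51.5% of all genes) and 11 higher of 40 in Oligo5 (23.6%), and with at least 20 they were 0 higher and 1 lower of 6 in the VLMCs (18.2% and 57.3%) and 0 higher and 1 lower of 5 in Oligo5 (15.9% and 39.6%). Leaving out a cell, with 10 to 25 members tested in the first comparison and 6 to 17 in the second, gave 1 to 6 higher and 0 to 6 lower in the VLMCs and 1 to 3 higher and 1 to 5 lower in Oligo5. With UMIs of 2 or more reads, Cox6a1 and Cox7a2 were each 100% of their pairs and Cox8a 0%, from 1 transcript.

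First exons were covered by 80% of member transcripts in the long run alone, by 85.8% with any GENCODE transcript (added after the data were seen, as for the 2 values of that kind that follow), and by 72.0% to 81.2% with a cell left out. Annotated ends were reached by 45.5% within 5 bp, 91.0% with any GENCODE transcript and 63.8% to 66.7% with a cell left out, and annotated starts by 6.87% within 5 bp, 45.8% within 50 bp and 65.2% with any GENCODE transcript. Members with 2 or more structures were 22 of 55 (40%, against 42.3% of all genes) when a structure counts from 1 transcript and 3 of 35 (8.57% against 12.5%) when it counts from 3. Depth limits the rest: 1 transcript is 0.879 to 4.33 per 10000 of a cell, and 62.7% of member UMIs had 1 read.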
